A study of Mus musculus with 12 samples.

Results

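The genes described here mark macrophages, and among them the Kupffer cells, which are the macrophages resident in the liver. The 10 genes are C1qa, C1qb, C1qc, Lyz1, Lyz2, Cd68, Trem2, Clec4f, Cd5l and Marco. Every probe set was taken whose only gene symbol, current or earlier, is one of these names, which gave 15 of the 22690 probe sets on the array. Clec4f, Cd5l and Marco, with 3 probe sets, were set apart as resident genes from the other 7, with 12 probe sets, which are called general here.

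Liver RNA of 12 male mice was hybridised to Affymetrix MOE430A arrays, 1 array a mouse, in 4 groups of 3. Knockout mice were homozygous for the Mdr2 deletion and their controls heterozygous, so the controls also carried a knockout allele; Mdr2, now Abcb4, is the transporter that puts phospholipid into bile, and the series describes the knockout as a model of hepatocellular carcinoma. Each genotype was sampled at 3 months (Het_3M and KO_3M) and at 12 months (Het_12M and KO_12M) in separate animals. The labels name no strain, no treatment and no dissection of tumour from other liver, and for 2 animals, mouse 1 of each 3-month group, the source label conflicts with the other labels by giving 12 months. Values are MAS 5.0 signals, a brightness on a linear scale, and signals of different probe sets cannot be compared as amounts of RNA.

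Kupffer cells line the sinusoids of the liver and clear particles, lipids, dying cells and bacteria from portal blood. When they are lost or the liver is injured, blood monocytes enter and become macrophages, which can take on the resident program over time. C1q, lysozyme and Cd68 are shared by most tissue macrophages, whereas in the mouse Clec4f is restricted to Kupffer cells, and Cd5l and Marco are made by Kupffer cells and a few other macrophages.

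C1qa, C1qb, C1qc, Lyz2 and Cd68 were higher in knockout than in heterozygous liver at 3 months, and so were the resident genes Clec4f and Cd5l. Of the 3 Lyz1 probe sets, 2 were higher, both of a kind that can match other transcripts, and the remaining one read lower and did not pass. At 12 months the differences of C1qa, C1qb, C1qc, Lyz2 and the same 2 Lyz1 probe sets again passed the test, and those of Cd68, Clec4f and Cd5l did not. No member passed the test of whether the knockout difference changed with age. Trem2 fell at 3 months by its brighter probe set. With the scan session of the arrays as a block, the C1q calls at 12 months were lost. The same block ended the 3-month calls of Clec4f, Cd5l, Cd68, Trem2 and the C1qb probe sets 1434366_x_at and 1437726_x_at. It also ended the calls of the Lyz1 probe set 1439426_x_at at both ages. With a control ratio of RNA quality as a covariate, Clec4f and Cd68 did not pass at 3 months. Marco stayed dim on nearly every array. Because whole liver was measured, more cells of a type and more RNA in each cell cannot be told apart in any of these values.

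Differences were tested with limma over 12977 probe sets, of which 13 of the 15 were members. Probe sets below the median signal of the array on more than 9 of the 12 arrays were left out. A difference counted as called where the p, adjusted by Benjamini and Hochberg's method over every probe set tested, was under 0.05. Of the 13, 11 lay at or above the median on every array, heterozygous ones included. The 2 left untested were the dimmer Trem2 probe set, 1421792_s_at, and the only Marco probe set, 1449498_at. Differences below are of log2(signal + 16), with limma's standard error and adjusted p, and n = 3 mice in each group; the offset of 16 makes them smaller than the ratio of the signals for dim probe sets.

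**Figure D1:**
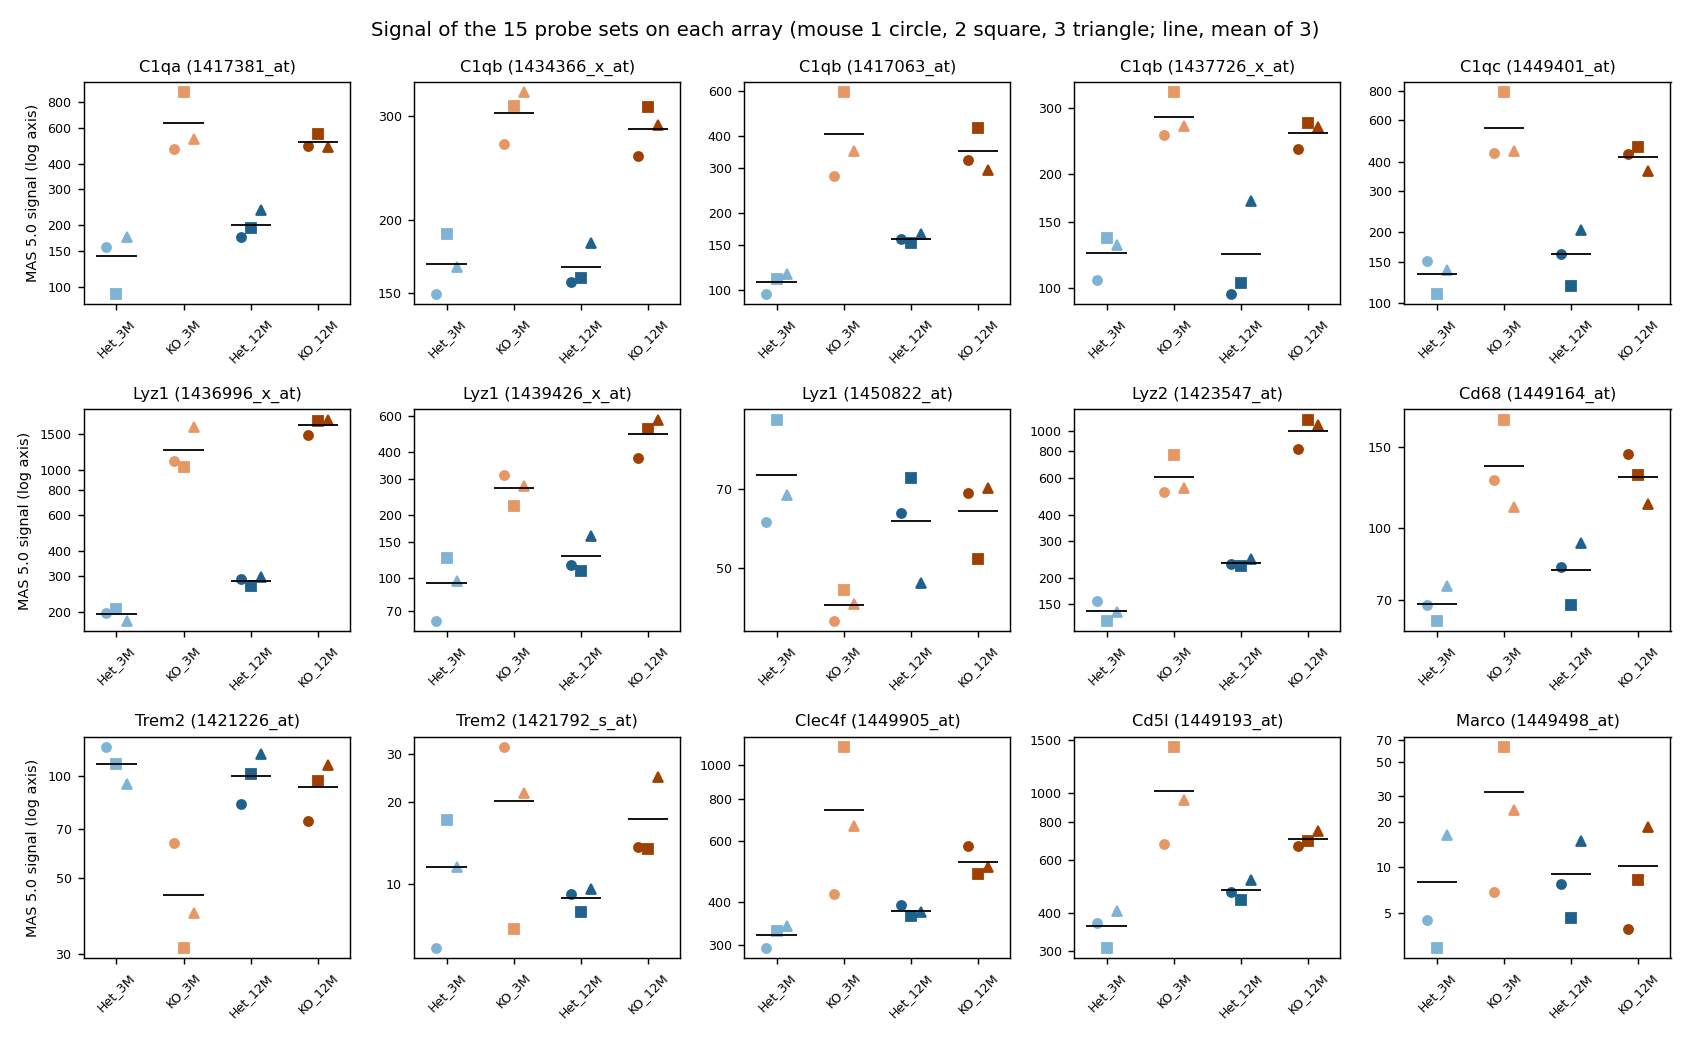
MAS 5.0 signal of the 15 probe sets on each of the 12 arrays, on log axes that differ between panels. Columns are the 4 groups, symbols are mice 1 (circle), 2 (square) and 3 (triangle), and lines are means of 3. The C1q, Lyz2 and Lyz1 _x_at panels show both knockout groups above both heterozygous groups, whereas for Clec4f and Cd5l the 3-month knockout mice reach the highest signals with a wide spread.

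Promoter sequences are shown for 3 gene pairs: the neighbours C1qb and C1qc, the neighbours Lyz1 and Lyz2, and the 2 measurable resident genes, Clec4f and Cd5l. C1qb, C1qc and C1qa lie next to each other on chromosome 4, and Lyz2 and Lyz1 on chromosome 10, with no other annotated gene between them. RefSeq windows on GRCm38.p6 were matched for 9 of the 10 genes; C1qa is the exception. Each is the 250 bases before the gene's start, printed 5′ to 3′ on the gene's strand: C1qb at chr4:136886201-136886450, C1qc at chr4:136892915-136893164, Lyz1 at chr10:117292869-117293118, Lyz2 at chr10:117282273-117282522 and Clec4f at chr6:83656117-83656366, all on the minus strand, and Cd5l at chr3:87357631-87357880 on the plus strand. Capitals mark GAGGAA, letters of the PU.1 site, or its reverse complement TTCCTC, and TGCTGA, letters bound by MAF factors, or its reverse complement TCAGCA; these motifs did not overlap in the windows shown.
C1qb: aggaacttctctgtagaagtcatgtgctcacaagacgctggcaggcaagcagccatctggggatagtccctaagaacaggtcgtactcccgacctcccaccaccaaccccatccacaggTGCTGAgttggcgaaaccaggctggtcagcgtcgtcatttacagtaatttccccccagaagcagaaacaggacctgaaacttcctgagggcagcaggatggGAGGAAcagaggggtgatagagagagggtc
C1qc: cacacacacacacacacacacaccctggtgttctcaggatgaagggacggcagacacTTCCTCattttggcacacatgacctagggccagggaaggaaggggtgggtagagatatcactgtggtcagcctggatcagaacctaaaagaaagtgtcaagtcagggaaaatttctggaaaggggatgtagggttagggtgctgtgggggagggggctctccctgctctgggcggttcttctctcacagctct
Lyz1: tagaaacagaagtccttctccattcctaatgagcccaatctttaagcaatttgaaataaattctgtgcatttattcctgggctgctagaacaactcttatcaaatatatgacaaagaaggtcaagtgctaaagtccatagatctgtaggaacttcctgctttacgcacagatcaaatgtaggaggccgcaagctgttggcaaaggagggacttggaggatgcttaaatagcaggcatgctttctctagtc
Lyz2: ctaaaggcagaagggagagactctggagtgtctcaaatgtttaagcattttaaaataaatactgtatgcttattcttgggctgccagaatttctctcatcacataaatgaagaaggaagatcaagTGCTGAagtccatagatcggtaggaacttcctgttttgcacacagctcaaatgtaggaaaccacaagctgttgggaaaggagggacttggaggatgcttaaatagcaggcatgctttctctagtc
Clec4f: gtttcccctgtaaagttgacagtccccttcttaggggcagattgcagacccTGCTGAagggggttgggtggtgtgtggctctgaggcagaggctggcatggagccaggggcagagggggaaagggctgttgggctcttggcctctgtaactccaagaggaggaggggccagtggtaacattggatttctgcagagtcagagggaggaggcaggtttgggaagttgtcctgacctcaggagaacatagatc
Cd5l: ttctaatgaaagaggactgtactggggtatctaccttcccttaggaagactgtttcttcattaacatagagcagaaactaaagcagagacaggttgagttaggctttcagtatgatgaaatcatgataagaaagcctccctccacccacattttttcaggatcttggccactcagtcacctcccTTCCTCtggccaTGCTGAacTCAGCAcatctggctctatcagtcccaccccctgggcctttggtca

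GAGGAA on either strand was found in 6 of the 9 member windows (C1qb, C1qc, Cd5l, Cd68, Trem2 and Marco) and in 23.3% of all 32851 promoter windows of this length. TGCTGA on either strand was found in 4 of the 9 (C1qb, Lyz2, Clec4f and Cd5l) and in 16.1% of all windows. Cd5l held both motifs, with the MAF letters on each strand 54 and 46 bases before the start. The Lyz1 and Lyz2 windows, read base against base without gaps, were identical at 152 of 250 positions, and at 92 of the 100 next to the start. The neighbours C1qb and C1qc matched at 55 of 250 positions (22.0%), and Clec4f and Cd5l at 63 (25.2%). A match of letters is a description of the window and shows no binding.

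The C1q genes encode the chains of the recognition molecule that starts the classical complement pathway and tags dying cells for removal. C1qa signals were 155.8, 92.3 and 174.5 in Het_3M and 474.2, 892.7 and 529.3 in KO_3M. At 12 months they were 175.5, 193.0 and 236.8 in Het_12M and 490.8, 562.1 and 480.4 in KO_12M. Every knockout mouse lay above every heterozygous mouse at either age. The mean rose from 141 ± 43.1 to 632 ± 227 (SD, n = 3) at 3 months, a log2 difference of 2.03 ± 0.23 (limma adjusted p = 2.06e-05). At 12 months it was 202 ± 31.6 in heterozygous and 511 ± 44.5 in knockout liver, a log2 difference of 1.28 ± 0.23 (limma adjusted p = 0.0016).

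C1qc, measured like C1qa by 1 probe set, showed 151.0, 109.1 and 138.4 in Het_3M against 435.7, 788.8 and 444.0 in KO_3M. Its 12-month signals were 162.0, 118.3 and 205.3 in Het_12M and 430.6, 463.4 and 366.3 in KO_12M. The genotypes again did not overlap at either age, and mouse 2 of KO_3M was far above its group as it was for C1qa. The log2 differences were 1.90 ± 0.22 (limma adjusted p = 2.99e-05) at 3 months and 1.32 ± 0.22 (limma adjusted p = 0.00101) at 12 months.

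C1qb had 3 probe sets, which rose at both ages by different amounts. 1417063_at read 96.4, 110.8 and 115.4 in Het_3M and 279.7, 590.8 and 348.5 in KO_3M, then 158.0, 152.7 and 164.9 in Het_12M and 321.5, 428.3 and 293.0 in KO_12M. Its log2 differences were 1.71 ± 0.21 at 3 months and 1.04 ± 0.21 at 12 months. The other two carry the suffix _x_at, with which the manufacturer marks probes that can also match other transcripts, and gave smaller values at 3 months. 1434366_x_at differed by 0.79 ± 0.14 and 0.72 ± 0.14, and 1437726_x_at by 1.10 ± 0.18 and 1.01 ± 0.18, at 3 and 12 months. All 3 passed the test at both ages (limma adjusted p from 5.23e-05 to 0.00447).

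Lyz2, the lysozyme of macrophages and neutrophils, had signals of 155.4, 124.3 and 137.5 in Het_3M and 510.8, 769.8 and 536.9 in KO_3M. It reached 233.9, 228.0 and 245.8 in Het_12M and 820.2, 1135.2 and 1064.9 in KO_12M. The 4 groups lay one above the other without overlap, in the order Het_3M, Het_12M, KO_3M, KO_12M. The knockout difference was 1.99 ± 0.16 (limma adjusted p = 8.7e-07) at 3 months and 2.01 ± 0.16 (limma adjusted p = 9.47e-07) at 12 months.

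Lyz1 is the lysozyme of the Paneth cells of the mouse intestine, and its 3 probe sets did not move alike. 1436996_x_at read 197.1, 205.9 and 179.8 in Het_3M and 1102.2, 1034.1 and 1627.0 in KO_3M, then 288.8, 269.0 and 295.6 in Het_12M and 1488.5, 1746.4 and 1769.9 in KO_12M. Its mean was 6.46 times as high in knockout as in heterozygous liver at 3 months and 5.87 times at 12 months, the largest ratios among the 15 probe sets (log2 differences 2.57 ± 0.15 and 2.48 ± 0.15, limma adjusted p = 3.79e-08 and 4.51e-08). 1439426_x_at rose by 1.40 ± 0.22 (limma adjusted p = 0.000395) and 1.81 ± 0.22 (limma adjusted p = 5.57e-05). Both carry the _x_at mark, so RNA of other genes may be read with them.

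The Lyz1 probe set without that mark, 1450822_at, read 60.9, 93.9 and 68.2 in Het_3M, 40.0, 45.6 and 43.0 in KO_3M, 63.2, 73.2 and 47.1 in Het_12M and 68.8, 52.0 and 70.4 in KO_12M. Here the 3-month knockout mice were the lowest, with no overlap, and the 12-month groups overlapped. The difference was -0.60 ± 0.22 (limma adjusted p = 0.0578) at 3 months and 0.05 ± 0.22 (limma adjusted p = 0.919) at 12 months. Of the other Paneth and intestinal genes on a list of 15, 7 were measured, 3 were bright enough to test and 0 passed at either age with limma at an adjusted or at an unadjusted p under 0.05. Defa3, a defensin of Paneth cells, was below the array median on all 12 arrays. Which lysozyme the _x_at probe sets read was not tested.

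Cd68, a glycoprotein of macrophage lysosomes, gave 68.3, 62.9 and 74.9 in Het_3M and 127.3, 172.0 and 111.0 in KO_3M. The 12-month signals were 82.5, 68.2 and 92.8 in Het_12M and 144.8, 130.7 and 112.6 in KO_12M. The genotypes did not overlap at either age. The difference was 0.83 ± 0.18 (limma adjusted p = 0.00406) at 3 months and 0.58 ± 0.18 (limma adjusted p = 0.0507) at 12 months. The 12-month value missed the threshold narrowly, and it passed under 6 of the alternatives tried, among them leaving out mouse 2 or 3 of KO_3M or mouse 3 of KO_12M. With the scan session as a block its limma adjusted p was 0.502.

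Trem2 is a receptor for lipids and lipoproteins on macrophages that signals through the adaptor DAP12, encoded by Tyrobp. Its brighter probe set, 1421226_at, read 122.1, 108.4 and 94.8 in Het_3M and 63.4, 31.1 and 39.6 in KO_3M. At 12 months it read 82.9, 101.7 and 116.3 in Het_12M and 74.0, 97.0 and 107.6 in KO_12M. The 3-month knockout mice lay below all 9 other mice, and the 12-month groups overlapped. It fell by 1.06 on the log2 scale at 3 months (SE 0.21, limma adjusted p = 0.00259), and the difference was -0.10 ± 0.21 (limma adjusted p = 0.845) at 12 months.

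The dimmer Trem2 probe set, 1421792_s_at, did not share this pattern. It read 5.8, 17.2 and 11.5 in Het_3M, 31.8, 6.8 and 21.5 in KO_3M, 9.2, 7.9 and 9.6 in Het_12M and 13.7, 13.4 and 24.6 in KO_12M. Its differences were 0.35 at 3 months, where the groups overlapped, and 0.40 at 12 months, where they did not. All values lay below the median of their array, and with no filter the limma adjusted p was 0.392 and 0.457. The 2 probe sets of Trem2 therefore gave no common direction.

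Clec4f, a lectin receptor that binds galactose-bearing glycans, read 292.6, 329.4 and 338.9 in Het_3M and 422.5, 1133.5 and 666.2 in KO_3M. It read 392.1, 364.6 and 373.6 in Het_12M and 582.8, 481.6 and 504.6 in KO_12M. The genotypes did not overlap at either age, and within KO_3M mouse 2 was 2.68 times as high as mouse 1. The difference was 1.06 ± 0.23 (limma adjusted p = 0.00473) at 3 months. At 12 months it was 0.45 ± 0.23 (95% interval -0.04 to 0.95, limma adjusted p = 0.266). That 12-month difference passed under 1 of the alternatives, when only the groups compared were fitted (limma adjusted p = 0.0494).

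Cd5l, a secreted scavenger protein that protects macrophages from cell death, read 373.1, 306.9 and 407.1 in Het_3M and 677.8, 1420.8 and 951.2 in KO_3M. Its 12-month signals were 469.5, 444.6 and 516.2 in Het_12M and 669.4, 692.9 and 750.4 in KO_12M. As for Clec4f, the genotypes were separate at both ages and mouse 2 of KO_3M was the highest of all 12 mice. The difference was 1.39 ± 0.20 (limma adjusted p = 0.000157) at 3 months and 0.55 ± 0.20 (95% interval 0.13 to 0.96, limma adjusted p = 0.0958) at 12 months. The 12-month difference passed under 4 of the alternatives, with a limma adjusted p of 0.0189 when only the groups compared were fitted.

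Marco, a scavenger receptor that binds bacteria and particles, read 4.5, 2.9 and 16.5 in Het_3M, 6.9, 63.3 and 24.2 in KO_3M, 7.8, 4.6 and 14.9 in Het_12M and 3.9, 8.2 and 18.6 in KO_12M. Only mouse 2 of KO_3M reached the median of its array. With no filter its differences were 0.85 (limma adjusted p = 0.141) at 3 months and 0.05 (limma adjusted p = 0.973) at 12 months. A probe set this dim gives no usable level, so the comparisons of resident with general genes below are given with and without it.

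At 3 months 11 of the 13 tested member probe sets were higher in knockout liver, 1 was lower and 1 did not pass. Of all 12977 probe sets, 9.57% were called higher and 11.6% lower in that comparison. At 12 months 8 of the 13 were higher, 0 lower (limma, 0 lower at an unadjusted p under 0.05 too) and 5 did not pass, against 5.86% higher and 3.6% lower of all. Without overlap between the 3 mice of each genotype, 11 of 13 were higher at 3 months (16.4% of all) and 11 of 13 at 12 months (14.7% of all), where 0 were lower (13% of all). The 2 more that did not overlap at 3 months, Trem2 and Lyz1 1450822_at, were lower, as were 23.1% of all. The median difference over the 13 was 1.39 at 3 months and 1.01 at 12 months, where the medians over all probe sets were -0.06 and -0.0035.

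With a median in place of a trimmed mean as the scale, the median of all probe sets moved from -0.06 to 0.11 at 3 months, and 15.5% were called higher and 6.2% lower. At 12 months 4.21% were then higher and 4.28% lower. The members' counts of 11 and 1 at 3 months and of 8 and 0 at 12 months were the same under that scaling and under quantile normalization.

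The arrays were scanned in 3 sessions, defined by gaps between scan times, and no session held both genotypes at 1 age. With session as a block, 5 member probe sets passed as higher at 3 months, where 2.15% of all did: C1qa (limma adjusted p = 0.0179), C1qb 1417063_at (0.0198), C1qc (0.0138), Lyz1 1436996_x_at (0.00127) and Lyz2 (0.00663). Clec4f, Cd5l, Cd68 and Trem2 kept differences of 1.07, 1.28, 1.09 and -1.28, with limma adjusted p between 0.09 and 0.209, and the other C1qb and Lyz1 _x_at probe sets had adjusted p from 0.154 to 0.207. At 12 months 2 passed as higher, Lyz1 1436996_x_at (0.00155) and Lyz2 (0.00494), where 0.462% of all did. The 12-month differences that lost the call did not all shrink: C1qa became 1.58 (limma adjusted p = 0.147) and C1qc 1.67 (limma adjusted p = 0.0945), both above their values without the block, whereas C1qb 1417063_at became 0.95 (limma adjusted p = 0.39) and Lyz1 1439426_x_at 1.00 (limma adjusted p = 0.255). Within the session that held mice 1 and 2 of KO_12M and mice 2 and 3 of Het_3M, 11 of the 13 tested probe sets were higher in every knockout mouse, as were 30% of all probe sets; these groups also differ in age. Lyz2 differed by 2.74 there, C1qa by 1.91, Cd5l by 0.91 and Clec4f by 0.64. Within the session that held the 3 KO_3M mice and mouse 3 of KO_12M, that mouse was above all 3 for 5 of the 13 (42.3% of all), below for 1, C1qc (26.1% of all), and between them for 7. Within the session of the 3 Het_12M mice and mouse 1 of Het_3M, the older mice were all higher for 8 of the 13 (28.9% of all) and all lower for 1, Trem2 1421226_at (27.2% of all). With 1 mouse on a side in these last sessions, such separation was common among all probe sets.

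The actin control probe sets give a ratio of 3′ over 5′ signal, which is higher in degraded RNA. At 3 months this ratio averaged 7.0 ± 1.64 for heterozygous and 4.92 ± 1.59 for knockout mice, and at 12 months 3.64 ± 0.56 and 2.79 ± 0.44 (SD, n = 3). With its log2 as a covariate, 9 member probe sets passed as higher and 1 as lower at 3 months (6.08% and 6.76% of all), and 8 as higher at 12 months (4.99% of all). Clec4f then differed by 0.64 (limma adjusted p = 0.0636) and Cd68 by 0.61 (limma adjusted p = 0.0547) at 3 months, and neither passed. At 12 months the Clec4f difference became 0.15 (limma adjusted p = 0.708), that of Cd5l 0.29 (limma adjusted p = 0.315) and that of Cd68 0.42 (limma adjusted p = 0.179). The part of this ratio in the other results was not tested further.

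**Figure D2:**
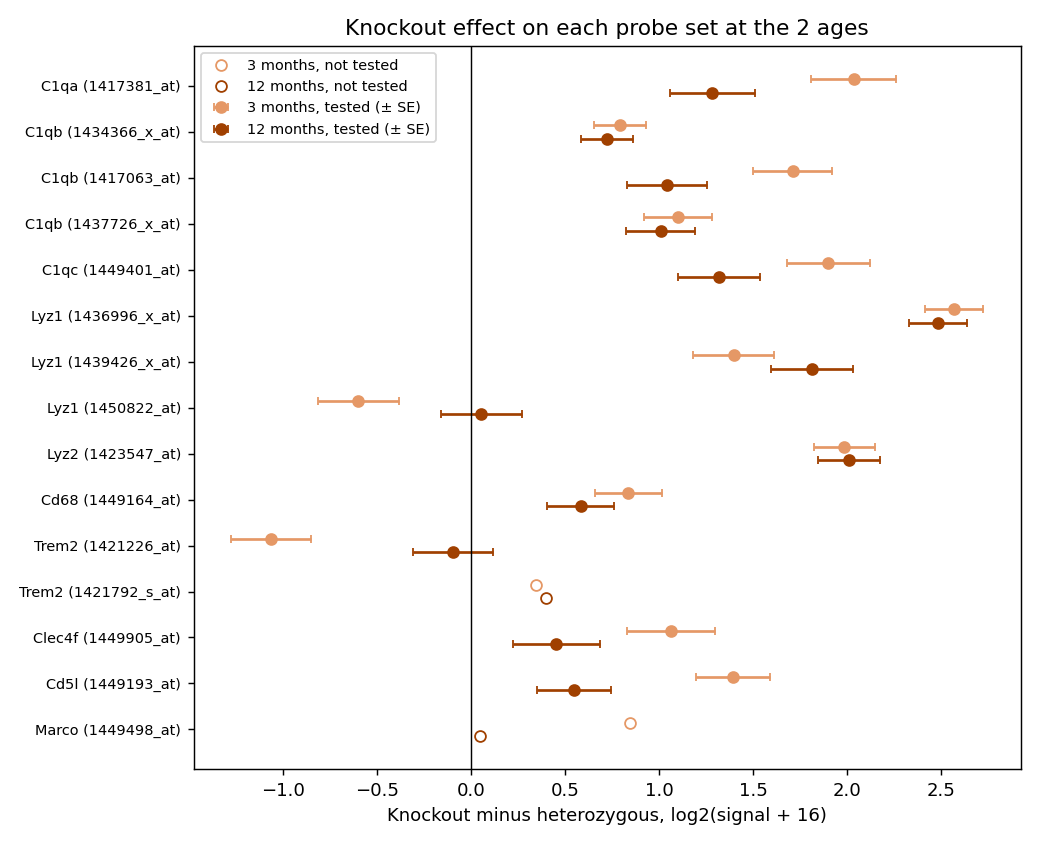
Knockout minus heterozygous difference in log2(signal + 16) for each probe set at 3 and at 12 months; filled points with bars are limma estimates with standard errors, and open points are the 2 untested probe sets, shown without error. Lyz1 1436996_x_at and Lyz2 are close to equal at the 2 ages, Clec4f and Cd5l are smaller at 12 months, and Trem2 1421226_at is below 0 at 3 months.

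Whether the knockout difference itself changed with age was tested by the interaction. None of the 13 passed with limma, and 0.717% of all probe sets did; 5 of the 13 and 15.2% of all had an unadjusted p under 0.05. For Cd5l the difference was lower at 12 months by -0.85 ± 0.28 (95% interval -1.43 to -0.26, limma adjusted p = 0.16), and for Clec4f by -0.61 ± 0.33 (95% interval -1.31 to 0.09, limma adjusted p = 0.399). The changes of C1qa, C1qb 1417063_at and C1qc were of like size, at -0.75 ± 0.32 (95% interval -1.43 to -0.07, limma adjusted p = 0.272), -0.67 ± 0.30 (limma adjusted p = 0.294) and -0.58 ± 0.31 (limma adjusted p = 0.392). Lyz2 changed by 0.02 ± 0.23 (95% interval -0.47 to 0.51) and Lyz1 1436996_x_at by -0.09 ± 0.22. Trem2 1421226_at changed by 0.97 ± 0.30 (limma adjusted p = 0.138). Without mouse 1 of KO_3M, Cd5l passed, at -1.10 (limma adjusted p = 0.0443), so a single mouse decides that call.

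How far the median knockout difference of resident and general genes lay apart depended on which probe sets were counted. Over the tested probe sets it was 1.23 for the 2 resident and 1.40 for the 11 general ones at 3 months, and 0.50 against 1.04 at 12 months. With 1 probe set a gene, the brightest, and with Marco counted, it was 1.06 over the 3 resident and 1.90 over the 7 general genes at 3 months, and 0.45 against 1.28 at 12 months. On each array the mean log2 signal of the 3 resident genes was set against that of the 7 general genes. The size of this value depends on the probes, so only its change between arrays is read. It was -0.19, -0.08 and 0.19 in Het_3M, -0.79, 0.33 and -0.20 in KO_3M, -0.03, -0.11 and -0.11 in Het_12M and -0.91, -1.10 and -0.75 in KO_12M. All 3 KO_12M mice were below all Het_12M mice, while KO_3M spread on both sides of Het_3M.

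At 3 months the mean was -0.03 ± 0.19 for heterozygous and -0.22 ± 0.56 for knockout mice, and at 12 months -0.08 ± 0.04 and -0.92 ± 0.17 (SD, n = 3). Knockout minus heterozygous was -0.19 at 3 months and -0.84 at 12 months, given as descriptions with no test because the members were chosen with results known. The 3-month value turned to 0.20 when Lyz1 and Lyz2 were left out and to 0.09 without mouse 1 of KO_3M. Among the 7 general genes, Trem2 by 1421226_at differed the other way at 3 months (-1.06), which raises these 3-month values. The difference without Trem2 was not taken. The 12-month value became -0.41 without the lysozyme genes and lay between -0.92 and -0.75 with each mouse left out in turn. Without Marco the values were -0.06 at 3 months, where the genotypes overlapped, and -0.68 at 12 months, where all KO_12M mice were lower; this alternative was chosen after seeing the data.

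The mean of Clec4f and Cd5l less that of the 3 C1q genes went from 1.15 ± 0.10 in heterozygous to 0.80 ± 0.30 in knockout mice at 3 months, a change of -0.35. At 12 months it went from 1.21 ± 0.16 to 0.60 ± 0.17, a change of -0.61. The genotypes overlapped on this measure at 3 months and did not at 12. Less that of Lyz1 and Lyz2, the same mean went from 0.98 ± 0.16 to -0.07 ± 0.51 at 3 months, a change of -1.05, and from 0.68 ± 0.01 to -1.07 ± 0.23 at 12 months, a change of -1.75. Here the knockout mice were all below the heterozygous mice at both ages. In the C1q measure, C1qb stands by its brightest probe set, 1434366_x_at, which differed by 0.79 at 3 months and 0.72 at 12 months. Its probe set 1417063_at differed by 1.71 and 1.04, and the measure with that probe set was not taken. How its change compares between the ages thus depends on the probe set chosen.

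**Figure D3:**
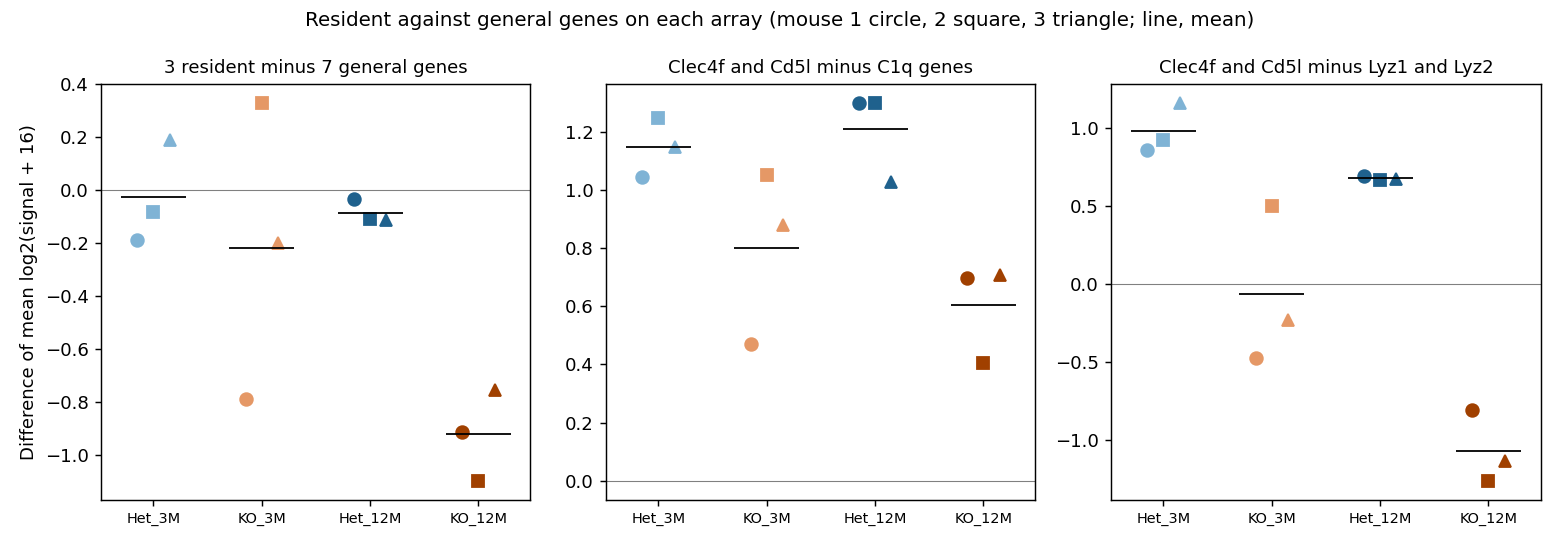
Difference of mean log2(signal + 16) on each array, for the 3 resident minus the 7 general genes (left), Clec4f and Cd5l minus the C1q genes (middle) and Clec4f and Cd5l minus Lyz1 and Lyz2 (right). Symbols are mice 1 to 3 and lines are means; the KO_12M mice sit lowest in the left and right panels, except that mouse 1 of KO_3M reaches their range on the left.

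Within KO_3M the mice did not rank alike for all members. Mouse 2 was the highest for 10 of the 15 probe sets, among them every C1q probe set except 1434366_x_at, Lyz2, Cd68, Clec4f, Cd5l and Marco. It was the lowest for both Lyz1 _x_at probe sets and for both Trem2 probe sets. Its excess over the lowest mouse of the group was 2.68 times for Clec4f and 2.09 times for Cd5l. Without that mouse Clec4f differed by 0.71 (limma adjusted p = 0.0144) and Cd5l by 1.12 (limma adjusted p = 0.00047) at 3 months. In Het_12M mouse 3 was the highest for 13 of the 15. The KO_12M mice were closer together, with Cd5l between 669.4 and 750.4 and Clec4f between 481.6 and 582.8.

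Age was compared within each genotype on the same arrays as above. In heterozygous mice 1 of the 13 passed, Lyz2, which rose by 0.70 ± 0.16 (limma adjusted p = 0.0493), where 1.14% of all probe sets were called and 0.709% were higher. It lost that call under 22 of the alternatives, the replicate block and each left-out Het_3M or Het_12M mouse among them. The resident genes Cd5l and Clec4f differed by 0.39 ± 0.20 and 0.22 ± 0.23, and neither passed (limma adjusted p = 0.34 and 0.696).

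In knockout mice 3 of the 13 passed and were higher at 12 months, where 8.85% of all were called and 5.69% were higher. They were Lyz2 (0.73 ± 0.16, limma adjusted p = 0.0154), Lyz1 1439426_x_at (0.81 ± 0.22, limma adjusted p = 0.0317) and Trem2 1421226_at (0.86 ± 0.21, limma adjusted p = 0.0221). Cd5l was -0.46 ± 0.20 (limma adjusted p = 0.141), Clec4f -0.38 ± 0.23 (limma adjusted p = 0.295) and C1qc -0.35 ± 0.22 (limma adjusted p = 0.32). Which members passed depended on single mice and on scaling. Without mouse 1 of KO_3M, whose source label gives 12 months, 2 members passed as higher and 2 as lower. The lower ones were Cd5l (-0.71, limma adjusted p = 0.0345) and Clec4f (-0.72, limma adjusted p = 0.042). The higher ones were Trem2 1421226_at and Lyz1 1439426_x_at. With median scaling the median of all probe sets moved from 0.10 to -0.20, and 2.2% were called higher and 18.2% lower. The 3 called members then stayed above 0, at 0.40, 0.49 and 0.60 in the same order, and did not pass, while 3 others that were already below 0 passed as lower: Cd5l (-0.79), Clec4f (-0.71) and C1qc (-0.67). The signals at the dim end also differed between these groups: the signal at the 10th percentile was 4.1 to 4.8 in KO_3M and 6.0 to 9.4 in KO_12M, with mouse 3 at 9.4. Without that mouse 0 of the 13 passed with limma, and 1 did without mouse 2 or 3 of KO_3M or mouse 2 of KO_12M.

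Other genes of macrophages and of the members' pathways were counted from 15 lists that leave out the members, with 1 probe set a gene. Of all 8218 genes tested, 9.64% were higher and 11.8% lower in knockout liver at 3 months, and 6.02% higher and 4.08% lower at 12 months. The medians over all genes were -0.06 at 3 months and -0.0036 at 12 months. The lists share some genes, so their counts are not independent.

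Of the 25 tested general macrophage genes, 13 rose and 0 fell at 3 months, and 14 rose and 0 fell at 12 months, with medians of 0.83 and 0.96. At 3 months Tyrobp, the DAP12 adaptor, rose by 1.46 ± 0.17, Lgals3, a galectin, by 1.58 ± 0.18, Cd52 by 1.59 ± 0.22 and Csf1r, the receptor for the macrophage growth factor CSF1, by 0.98 ± 0.13. At 12 months Cd14, the co-receptor for bacterial lipopolysaccharide, rose by 2.39 ± 0.30, Lgals3 by 1.62 ± 0.18, Cd52 by 1.34 ± 0.22 and Itgb2, the shared chain of leukocyte integrins, by 1.22 ± 0.20. The summed signal of this list was 3326.5 to 3387.3 in Het_3M and 5477.6 to 7576.4 in KO_3M, then 2957.4 to 3514.9 in Het_12M and 5040.8 to 6279.4 in KO_12M.

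Of the 15 other Kupffer cell genes tested, 1 rose and 2 fell at 3 months, and 2 rose and 0 fell at 12 months, with medians of 0.30 and 0.18. These counts are near the shares of all genes and give no result about the list. C6, a complement component that hepatocytes also make, rose by 1.10 ± 0.16 at 3 months. Adgre1, the F4/80 antigen, fell by 0.64 (SE 0.17, limma adjusted p = 0.0157), and Id3, a transcriptional regulator needed for Kupffer cell development in the mouse, by 0.53 (SE 0.18, limma adjusted p = 0.0473). Vsig4 (0.80, limma adjusted p = 0.057), Clec1b (0.37) and Folr2 (-0.0011), of the same list, did not pass at 3 months. Cd163 was too dim to test and read lower, with means of 35.7 in Het_3M and 6.87 in KO_3M. At 12 months Id3 (0.93 ± 0.18) and Slc11a1 (0.62 ± 0.18), a metal transporter of phagosomes, rose. The summed signal of the genotypes did not overlap at 3 months and overlapped at 12. It was 5476.1 to 5620.6 in Het_3M and 5874.1 to 7210.2 in KO_3M, and 5795.2 to 6024.8 in Het_12M against 5903.9 to 6768.6 in KO_12M. C6 is part of this sum, with a mean of 823 in Het_3M and 1789 in KO_3M. The separation at 3 months therefore gives no result about the other genes of the list.

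Of a list of C1q partners, receptors and other complement genes, 6 of 13 rose at 3 months and 3 of 13 at 12 months, with 0 falling. Its genes of the classical pathway itself, singled out after the values were seen, are C1ra, C1s1, C2 and the inhibitor Serping1. C1s1 (0.53, limma adjusted p = 0.034) and C2 rose at 3 months, and at 12 months all 4 did not pass, with differences from -0.12 to 0.21. Cfp, properdin, which stabilises the convertase of the alternative pathway, rose by 1.87 ± 0.36 and 1.57 ± 0.36 at the 2 ages and Itgb2 by 0.92 ± 0.20 and 1.22 ± 0.20. C2, which C1 cleaves in the classical pathway, rose by 0.98 ± 0.14 and Cfb, its relative in the alternative pathway, by 0.67 ± 0.14, both at 3 months. C3ar1, the receptor for C3a, rose by 0.58 ± 0.16 at 12 months. The median of the list was 0.39 at 3 months and 0.08 at 12 months.

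Genes of TREM2 and DAP12 signalling mostly did not pass: 3 of 15 rose and 0 fell at 3 months, and 2 rose and 0 fell at 12 months. Tyrobp rose at both ages (1.46 ± 0.17 and 0.96 ± 0.17), while the Trem2 probe set 1421226_at fell at 3 months. Plcg2, a phospholipase downstream of the adaptor, rose by 0.69 ± 0.23 at 3 months and Adam10, a protease that sheds TREM2, by 0.58 ± 0.16 at 12 months. Dap3, which also rose at 3 months (0.67 ± 0.20), encodes a protein of the mitochondrial ribosome and does not act in this pathway. The medians of the list were 0.09 and 0.14.

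Among scavenger and clearance receptors 9 of 18 rose at 3 months and 7 of 18 at 12 months, and 0 fell. Cd36, a fatty acid and lipoprotein receptor that hepatocytes also make, rose by 2.69 ± 0.25 and 2.55 ± 0.25. Axl, a receptor for dying cells, rose by 2.51 ± 0.28 and 1.89 ± 0.28, and its ligand Gas6 by 1.17 ± 0.14 at 3 months. Tgm2, a transglutaminase that aids engulfment, rose by 1.65 ± 0.18 at 12 months.

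Genes of lipid and scar associated macrophages, the type for which Trem2 is a marker, rose in 9 of 18 cases and fell in 1 at 3 months, and rose in 8 and fell in 0 at 12 months. Lpl, lipoprotein lipase, rose by 2.09 ± 0.15 and 2.18 ± 0.15, and Anxa5, which binds phosphatidylserine, by 3.55 ± 0.30 and 3.38 ± 0.30. Lgmn, a lysosomal protease, rose by 1.79 ± 0.22 at 3 months and Mmp12, macrophage elastase, by 2.83 ± 0.35 at 12 months. Fabp5, a fatty acid binding protein, fell by 1.34 (SE 0.21) at 3 months. Gpnmb and Ctsk, also of this list, were below the array median on all arrays. Whole liver was measured, and which cells gave the values of this list was not tested.

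Of the CSF1 axis and macrophage transcription factors, 1 of 11 rose and 3 fell at 3 months, and 2 rose and 0 fell at 12 months, with medians of -0.0004 and 0.08. Csf1r rose at both ages (0.98 ± 0.13 and 0.67 ± 0.13), and Runx1 fell by 0.79 (SE 0.19) and Id1 by 0.60 (SE 0.18) at 3 months. Maf, of the factor family whose letters were searched in the promoters, was below the median of the array on all 12 arrays.

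Markers of other cell types that the same liver RNA could hold were read beside the members. Of the monocyte list 3 of 5 rose at 3 months and 2 of 5 at 12 months: Plac8 by 1.60 ± 0.16 and 1.00 ± 0.16, S100a6 by 1.52 ± 0.36 and 2.11 ± 0.36, and Ifitm3 by 0.98 ± 0.16 at 3 months. Cells other than monocytes also express these 3 genes. Ccr2, Cx3cr1, Itgam, Chil3, S100a4, Ccl2, Ccl7, Itga4 and Ifitm6, 9 of the 16 measured, lay below the array median on all 12 arrays, and the summed signal was 2670.4 to 2737.8 in Het_3M, 4488.1 to 5875.2 in KO_3M, 2509.3 to 2891.1 in Het_12M and 3001.0 to 4342.4 in KO_12M. Ifitm3, which many cell types express, held most of that sum, with a mean of 2208 in Het_3M and 4409 in KO_3M. Without it the sum was 482.0 to 530.4 in Het_3M, 647.4 to 909.4 in KO_3M, 497.1 to 552.8 in Het_12M and 797.3 to 901.3 in KO_12M. Their part in the members' values was not tested.

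Of 10 tested neutrophil genes 1 rose and 2 fell at 3 months, and 1 rose and 0 fell at 12 months. The one that rose was Lcn2 (5.42 ± 0.44 and 4.46 ± 0.44), which injured hepatocytes also make, while S100a8 was too dim to test and S100a9 did not pass. The neutrophil sum was 803.8 to 868.3 in Het_3M, 1142.2 to 1798.0 in KO_3M, 795.4 to 824.1 in Het_12M and 1133.1 to 2630.3 in KO_12M, with 5 of 17 genes below the array median throughout. The rise of this sum at 3 months was that of Lcn2, whose mean went from 4.9 to 929.4. Without Lcn2 the sum was 796.6 to 864.6 in Het_3M, 566.9 to 617.5 in KO_3M, 760.7 to 815.0 in Het_12M and 677.9 to 1028.8 in KO_12M, so the 3-month knockout mice were the lowest. The part of neutrophils in the Lyz2 values was not tested. The dendritic cell list had 2 of 6 higher and 0 lower at 3 months and 3 of 6 higher and 0 lower at 12. Of T and natural killer cell genes 1 of 8 rose and 1 fell at 3 months, then 1 rose and 0 fell. Of B and plasma cell genes 0 of 5 rose and 1 fell, then 0 moved either way. Sinusoidal endothelial genes gave 2 higher and 3 lower of 13, then 0 called. The hepatocyte list, of which all 13 genes reached the array median on some array, gave 1 higher and 2 lower at 3 months, then 0 higher and 3 lower. At 12 months all 13 hepatocyte genes were below 0, from -0.81 to -0.13 with a median of -0.36, beside the members' higher values, and the part of this shift in them was not tested. Mouse 3 of KO_12M had the lowest hepatocyte sum, 48188, against 69484 and 74151 in its group.

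**Figure D4:**
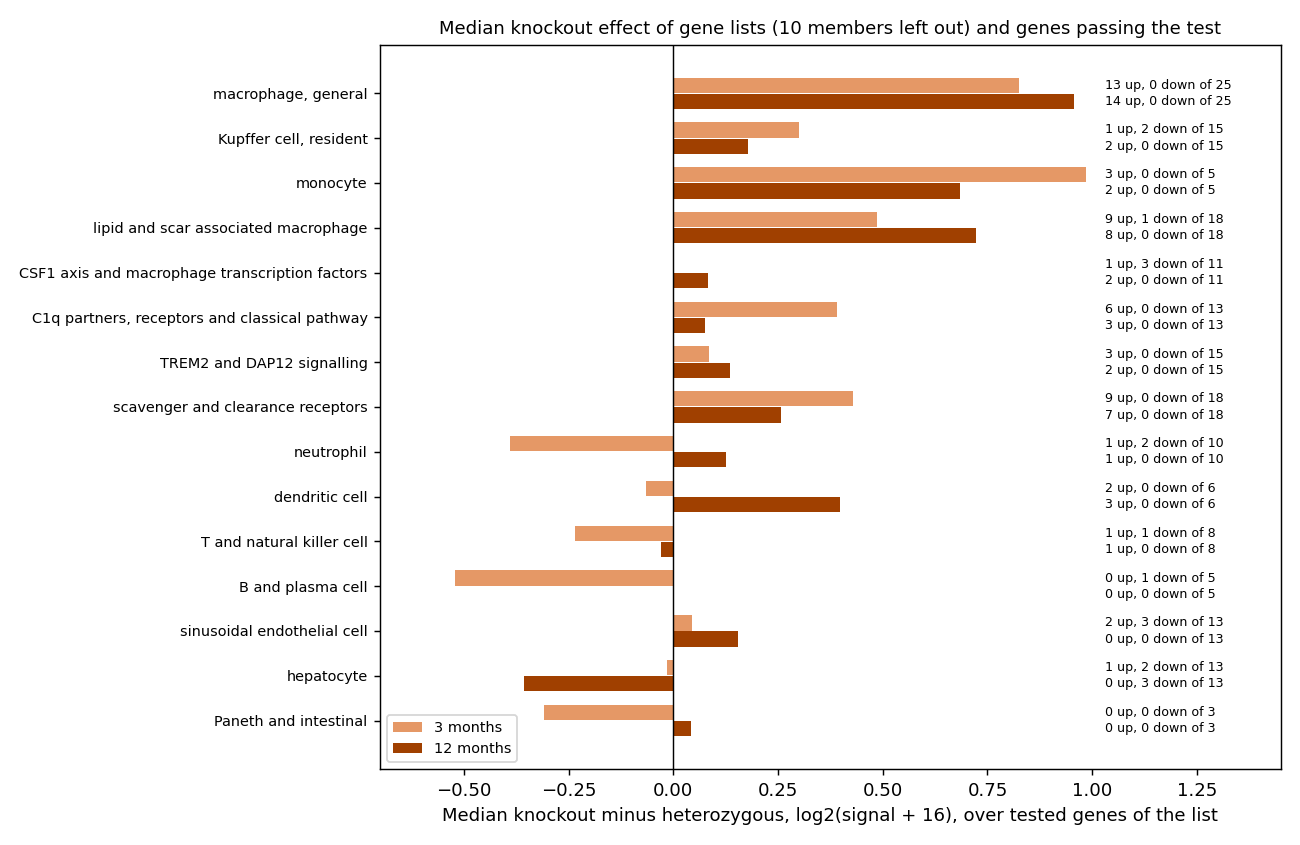
Median knockout minus heterozygous difference in log2(signal + 16) over the tested genes of 15 lists, members left out, at 3 and 12 months, with the number of genes that passed limma's test in each direction. General macrophage genes have medians of 0.83 and 0.96, and the other Kupffer cell genes 0.30 and 0.18.

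The genes whose profile over the 12 arrays was most like the mean of C1qa, C1qb and C1qc, among 8209 tested genes that are no members, were Sirpa (Pearson r = 0.968), Ccl9 (0.968), Slpi (0.965), Gss (0.965) and Axl (0.961). Those most like Clec4f were Pcna (0.909), Usp18 (0.905), Irf7 (0.895), Ctss (0.894) and Ms4a6b (0.891). These r values are descriptions over arrays that fall into 2 genotypes and share scan sessions. Sirpa is a receptor of myeloid cells, Ccl9 a chemokine and Slpi a protease inhibitor. Pcna is the sliding clamp of DNA replication, Usp18 and Irf7 are genes of the interferon response, and Ctss is a lysosomal protease of antigen-presenting cells.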

How the data were processed

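The members and gene lists were chosen with earlier results of these data known. The authors' deposited values are linear intensity signals made with MAS5, per the submitters' processing notes; further settings were not given in the sources used here. Each array was rescaled to a common trimmed mean (2nd to 98th percentile), 16 was added and log2 taken. Probe sets were named through the platform table, with symbols updated by gene ID to RefSeq (GRCm38.p6). The brightest probe set by mean log2 signal represented each gene. limma 3.58.1 in R 4.3.3 (lmFit, eBayes with an intensity trend) fitted 4 group means to all 12 arrays, with 8 residual degrees of freedom, on 12977 probe sets; Benjamini-Hochberg adjustment ran over all of them. On simulated data for knockout against heterozygous at 3 months, 28.4% of 1.5-fold, 79.1% of 2-fold and 97% of 3-fold changes were recovered. Of the 12977 simulated probe sets 67, 67 and 66 were changed by these amounts, and 9 unchanged ones were called. The noise was independent, with no scan session or RNA quality effect, and fewer probe sets were changed than were called in the data. These shares hold for that setting only. The number of arrays limits the precision. All probe sets of the members were named; from each list up to 4 called genes with the lowest p in the commoner direction and 1 in the other, and the 5 genes most like C1q or Clec4f. Alternatives covered scaling, offset, filter, probe set choice, variance model, scan session, RNA quality and left-out arrays. Experiment files stored with the arrays served only to find sessions and fluidics.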

Additional observations from a re-analysis of the deposited data

Results flagged for a closer look

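For 3 genes of the lists, the knockout effect at 12 months differed from that at 3 months by limma's interaction test. Id3, of the Kupffer cell list, differed by 1.46 on the log2 scale (limma adjusted p = 0.0199). Lyve1, an endothelial marker, differed by 1.27 (limma adjusted p = 0.0458). Pck1, a gluconeogenic enzyme of hepatocytes, differed by -2.15 (limma adjusted p = 1.16e-05). None of the 13 tested member probe sets passed that test. With 3 mice in each group, no search for single outlying mice was made.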

How the results depend on the processing

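At 3 months the count of 12 called members kept within 1.5 times under every alternative except scan session as a block, which left 5, and at 12 months the count of 8 did so except under that block, which left 2; leaving out each mouse gave 12 to 12 and 8 to 10. Age in heterozygous mice, 1 call, gave 0 with an offset of 64, quantile normalization, median scaling, no filter, 1 probe set a gene, the mean of the probe sets, no intensity trend, scan session as a block, the actin control ratio as covariate, a 2-fold minimum and without the arrays of conflicting age label, other fluidics script or fluidics error. It gave 2 with array weights and 0 to 1 with mice left out. Age in knockout mice, 3 calls, gave 1 with only the groups compared, the session block, the covariate or without the other fluidics script. It gave 0 with a 2-fold minimum and 0 to 4 with mice left out. Of the 4 calls without mouse 1 of KO_3M, 2 were higher and 2 lower (Cd5l and Clec4f). With median scaling age in knockout mice gave 3 calls, all lower and of other members (Cd5l, Clec4f and C1qc). The 3 called before kept their sign and lost the call. The interaction, 0 calls, gave 1 (Cd5l) without the other fluidics script (mouse 1 of KO_3M and mouse 3 of KO_12M) and 0 to 1 with mice left out. The resident against general difference turned to 0.2017 at 3 months without Lyz1 and Lyz2 and ran from -0.4669 to 0.0923 with mice left out; at 12 months it was -0.4122 without them, -0.6849 without Marco (an alternative chosen after seeing the data) and -0.9198 to -0.7487 with mice left out. The causes were not tested.

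Among single probe sets, Lyz1 1450822_at at 12 months turned to -0.0185 with quantile normalization, -0.0188 with median scaling, -0.3315 with the session block, -0.0086 without the other fluidics script or without mouse 3 of KO_12M and ran from -0.0842 (without mouse 3 of Het_12M) to 0.165 with mice left out. Trem2 1421226_at at 12 months turned to 0.0389 with the session block, 0.1267 with the covariate, 0.0006 without mouse 3 of Het_12M and 0.0335 without mouse 1 of KO_12M, in a range from -0.2094 with mice left out. Counted over every pair of a probe set result and an alternative, 71 lost a call, 12 gained one and 10 changed sign. The remaining 788 pairs stayed as they were, called or not called. With the replicate block the counts were 12, 8, 0, 3 and 0 in the order 3 months, 12 months, age in heterozygous, age in knockout and interaction, so the 1 call lost was Lyz2 with age in heterozygous mice. Same-numbered mice correlated in their deviations from the group means between -0.231 and 0.176, with 1 of 18 pairs over 0.1. Best with their own number were 3 of 12 arrays. The main fit used no pairing, and with 3 mice in each group these values cannot exclude one. Dim probe sets (Marco, Trem2 1421792_s_at) near background limit what can be read from them.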
